A study of Mus musculus with 68 samples.

Results

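The ATF4-CHOP arm of the integrated stress response was followed through 10 genes in mouse embryonic fibroblasts (MEFs), namely Atf4, Ddit3 (CHOP), Atf3, Trib3, Ppp1r15a, Chac1, Sesn2, Nupr1, Cebpb and Cebpg. The genes are a list of names, drawn up with earlier results of these data known, and all 10 were found among the 13378 genes measured. MEFs came from 8 inbred strains, A/J (A), C57BL/6J (B6), 129S1Sv/ImJ (129), NOD/ShiLtJ (NOD), NZO/H1LtJ (NZO), CAST/EiJ (CAST), PWK/PhJ (PWK) and WSB/EiJ (WSB), and from 5 F1 crosses of a B6 mother with a 129, NOD, NZO, CAST or WSB father (x129, xNOD, xNZO, xCAST and xWSB). Cells received tunicamycin (TM) at 2 ug/ml or 0.1% DMSO (control) for 4 h, and each of the 26 groups held 2 or 3 libraries, 68 in all. TM blocks N-linked glycosylation, so that misfolded proteins build up in the ER. No engineered allele or transgene is given for any of them. The MEFs of a genotype were a mix of littermate female embryos, so replicates were cultures of a single stock and p-values measure the spread between cultures, which may be technical. A difference between strains or crosses cannot be told apart from a difference between their stocks, here and in all tests below. Libraries that did not group with their own condition had been removed by the authors, which leaves 18 control and 22 TM libraries of the strains and 14 of each in the crosses.

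In the integrated stress response, kinases that sense stress phosphorylate the translation initiation factor eIF2, which lowers translation in general while the ATF4 mRNA is translated more. The ER sensor among these kinases is PERK. ATF4 and its C/EBP partners then switch on transcription factors such as CHOP and ATF3, feedback regulators such as GADD34 (Ppp1r15a) and TRIB3, and effectors of amino acid and redox metabolism. The composite site bound by ATF4 with a C/EBP protein, the C/EBP-ATF response element, has the core TGATGNAA. ATF and CREB family proteins also bind the cAMP response element (CRE), TGACGTCA.

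The RefSeq promoter windows of the 10 genes (GRCm38.p6, 250 bases before to 50 after the transcription start) were searched on both strands for these letters. The core TGATGNAA was found in 4 of 10 windows and in 3.97% of the 32851 windows of all genes. The CRE was found in 1 of 10 windows, that of Ppp1r15a, and in 1.79% of all windows. The ER stress response element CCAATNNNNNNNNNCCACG, which ATF6 binds together with NF-Y, was in none of the 10 and in 0.119% of all windows. The shorter letters TGACG, which are part of the CRE, and CCAAT were each in 6 of 10 windows and in 20.8% and 37.4% of all windows. The matches to TGATGNAA and to the CRE are given with 10 bases on either side, read along the strand that carries the motif, because these are the letters associated with ATF4 and its relatives. Capitals mark the motif.

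Atf3: gcggacttggTGATGCAAgtgcgagaag
Chac1: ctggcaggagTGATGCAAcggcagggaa
Nupr1: aagccctgtcTGATGCAAtctggccctt
Trib3: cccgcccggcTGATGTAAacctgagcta
Ppp1r15a: gcctctccggTGACGTCAgcacagcgcc

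The windows lay at chr1:191183426-191183453 (Atf3), chr2:119351039-119351066 (Chac1), chr7:126625563-126625590 (Nupr1), chr2:152344029-152344056 (Trib3) and chr7:45526263-45526290 (Ppp1r15a). In the first 4 the motif was on the strand opposite to the gene. In Trib3 its first base was base 15 from the RefSeq start, and in the other 4 genes it lay upstream of that start. The GENCODE model of Trib3 begins further downstream, at 152344032, and the motif lies upstream of it. Neither was found in the windows of Ddit3, Atf4, Sesn2, Cebpb and Cebpg, which says only that these letters are not within them. The whole windows of Trib3 (chr2:152344011-152344310, minus strand) and Sesn2 (chr4:132510407-132510706, minus strand) are given 5′ to 3′ along the gene, since among the 10 genes they had the smallest p for a strain difference in control level and in TM level, respectively. In the Trib3 window the capitals are the motif read from the gene's own strand, and the Sesn2 window holds none. They are reference sequence, and the alleles of the other strains were not analysed here.

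Trib3: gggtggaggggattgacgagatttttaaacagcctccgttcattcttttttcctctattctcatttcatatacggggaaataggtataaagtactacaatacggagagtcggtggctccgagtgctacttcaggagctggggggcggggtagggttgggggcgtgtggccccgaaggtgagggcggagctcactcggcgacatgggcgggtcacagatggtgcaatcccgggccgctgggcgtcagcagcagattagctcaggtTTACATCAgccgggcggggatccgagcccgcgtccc
Sesn2: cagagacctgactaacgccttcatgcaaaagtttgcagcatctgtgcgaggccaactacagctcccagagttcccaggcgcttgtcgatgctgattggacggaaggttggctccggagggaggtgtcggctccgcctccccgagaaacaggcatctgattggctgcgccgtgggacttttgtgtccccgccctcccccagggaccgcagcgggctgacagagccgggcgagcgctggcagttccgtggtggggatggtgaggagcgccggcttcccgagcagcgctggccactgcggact

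Values are scaled reads, that is reads per gene brought to a common library size by the authors and not divided by gene length. Strains and crosses were scaled separately, so levels are compared only within each set. Libraries held 7091923 to 21530282 reads in the strains and 6442976 to 29528457 in the crosses where reads could be recovered. All 12 fibroblast markers were detected, with Col1a1 between 2471 and 20245, and their sum was 21440 to 56535 in control and 18328 to 50117 in TM libraries of the strains and 14325 to 35426 in the crosses. In the strains the sum of 9 measured myeloid markers was 8.53 to 69.2 in control and 7.44 to 55.7 in TM libraries, with Lyz2 up to 43.1 and Ptprc up to 1.67. The sum of 4 epithelial markers was 5.74 to 78.4 and 3.79 to 73.1, with Krt8 up to 24.04, and that of 5 endothelial markers was 3.13 to 19.9 and 1.67 to 11.9. In the crosses these sums stayed at or below 25.6 for 5 myeloid, 31.7 for 3 epithelial and 19.0 for 5 endothelial markers. Their part in the results was not tested. In bulk RNA, a lower share of cells that express a gene and less of its RNA per cell cannot be told apart.

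Nearly every gene of the group rose with TM in most genotypes, and Cebpb was the exception. A gene was called induced at an adjusted p below 0.01 over all genes and a rise of at least 1.5 fold (limma). In the strains, 61 of 80 gene-by-strain pairs were induced and none was lowered, where 2.4% of such pairs over all genes were induced. In the crosses, 39 of 50 pairs were induced and none was lowered, where 2.54% of pairs over all genes were induced. Lowered calls were few over all genes as well. In the strains they ran from 1 in each of 129, A and NZO to 548 of 12730 genes in PWK. In the crosses they ran from 2 in xWSB to 573 of 12468 genes in xNOD. Every TM library lay above every control library in 71 of 80 pairs in the strains and in 45 of 50 in the crosses. Over all genes this held for 22.5% of gene-by-strain pairs and 19.4% of gene-by-cross pairs. Beside Cebpb, only Nupr1 in A and Nupr1 in xWSB overlapped.

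By strain, 9 of 10 genes were induced in B6, CAST, NOD, PWK and WSB, where 5.04%, 2.54%, 1.45%, 6.36% and 2.85% of all genes were. In 129, 6 genes were induced against 0.315% of all genes. In A and in NZO, 5 genes were induced against 0.346% and 0.32%. By cross, 8 genes were induced in x129, 9 in xCAST, 9 in xNOD, 8 in xNZO and 5 in xWSB, against 4.88%, 2.52%, 3.69%, 1.44% and 0.185% of all genes. All 11 pairs other than Cebpb that were not induced in the strains fell in 129, A and NZO, with folds between 1.67 and 3.49. Standard errors (SE) throughout are those moderated by limma, which borrows spread from other genes. With 2 or 3 libraries in a group they rest in part on those genes. The median standard error of a log2 change over all genes ran from 0.114 in B6 to 0.280 in A. It was 0.214 in 129, 0.211 in NZO and 0.250 in xWSB, and also 0.201 in WSB and 0.190 in xCAST, where 9 genes were induced. When all libraries of a set shared 1 estimate of the spread, 9 genes were induced in 129 and 8 each in A, NZO and xWSB. Calls over all genes rose as well, from 40 to 434 in 129 and from 44 to 554 in A. They rose from 41 to 449 in NZO and from 23 to 387 in xWSB. Without the mean-variance trend in limma, 35 of 80 pairs in the strains were induced. Calls over all genes then fell in every strain, for instance from 639 to 14 in B6 and from 44 to 41 in A. The counts also rested on single libraries. None of the 10 was induced in 129 without TM replicate 2 or in A without TM replicate 3. The same held in NZO without TM replicate 1 or 2 and in xWSB without control replicate 2. Calls over all genes in these fits were 0 in 129, 5 in A, 1 and 1 in NZO and 4 in xWSB. The count of the 10 was 3 and 2 in A without TM replicate 1 and 2. It was between 1 and 3 in xWSB without control replicate 3 or any TM library. Those fits called 10 and 16 of all genes in A, and between 5 and 20 in xWSB. In NOD the count of the 10 was 5, 5 and 4 without TM replicate 1, 2 and 3, and in xNOD 3 without any of the controls. Calls over all genes were then 64, 58 and 37 in NOD, in place of 185. They were 14, 13 and 19 in xNOD, in place of 460. NZO TM replicate 3 stood apart from replicates 1 and 2, with Ddit3 at 864 against 467 and 430 and Nupr1 at 359 against 206 and 193. Without it 8 of the 10 genes were induced in NZO, and 1289 of all genes in place of 41. In xWSB, the only genotype with 3 same-numbered pairs that all had correlated deviations (r above 0.1), 3 genes were induced with the pairs as a block. That block called 10 of all genes in xWSB.

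**Figure D1:**
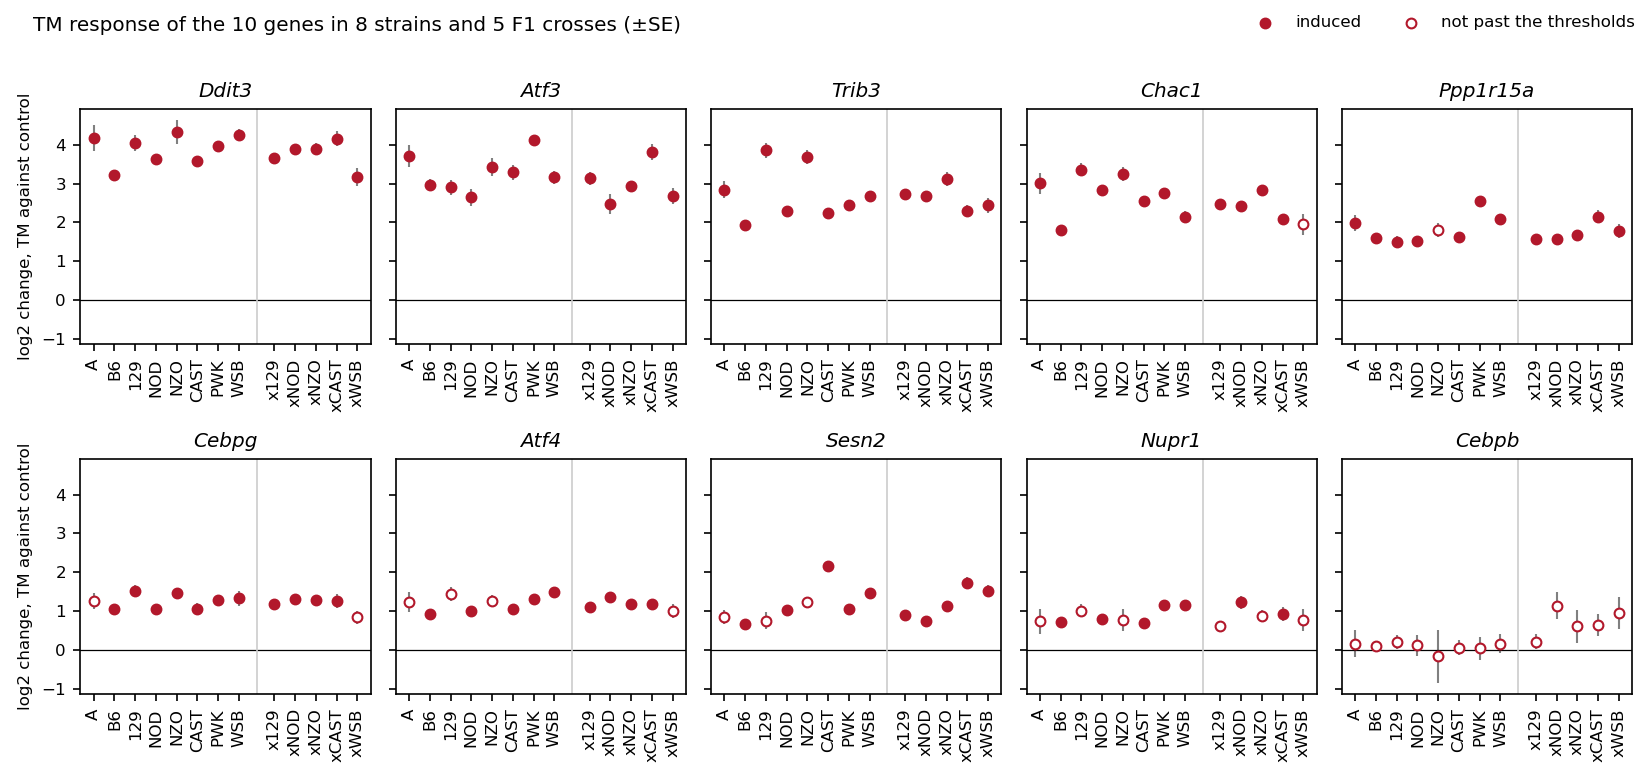
Log2 change of each gene (y axis) in the 8 strains and, right of the grey line, the 5 F1 crosses (x axis), with SE bars; filled points were induced and open points were not past the thresholds. Ddit3 was induced throughout at 3.18 to 4.33, Cebpb nowhere, and Sesn2 stood highest in CAST at 2.15.

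Among the transcription factors at the head of the pathway, Atf4 had control values of 343 and 345 in B6 and TM values of 615 and 686. In WSB, its controls were 272 and 270.3 and its TM libraries 773, 791 and 735. Control and TM libraries of Atf4 were apart in all 13 genotypes. Its change was smallest in B6, with a log2 change of 0.92 ± 0.07 (SE, n = 2 and 2), and largest in WSB at 1.50 ± 0.13 (n = 2 and 3). The order of strains by ratio was WSB, 129, A, PWK, NZO, CAST, NOD and B6, and neighbours overlapped except between NZO and CAST. Atf4 was induced in 5 of 8 strains and 4 of 5 crosses. Per kilobase of exon, Atf4 was the most abundant of the 10 genes in control cells, with a median over the strains of 124 scaled reads, against 39.98 for Nupr1 in the next place. Lengths were all bases in any annotated exon of a gene, 2514 for Nupr1 and 1713 for Ddit3. Ranks per kilobase therefore depend on the annotation.

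The C/EBP partners split. Cebpg, a short C/EBP protein without an activation domain that pairs with ATF4, was induced in 7 of 8 strains and 4 of 5 crosses, with log2 changes from 1.05 in NOD to 1.52 in 129. In 129 its controls were 21.4 and 21.04 and its TM libraries 59.9, 61.5 and 62.0. Cebpb, which encodes C/EBPβ, had a mean log2 change of 0.08 over the strains and 0.71 over the crosses and was called induced in none of the 13 genotypes. In NZO its controls were 39.7 and 49.9, and its TM libraries were 23.8, 23.7 and 109. The TM libraries of NZO thus lay on both sides of the controls, with a change of -0.17 ± 0.68 (SE). Among the TM libraries of a strain, replicate 3 had the highest Cebpb in 7 of 8 strains, and in all 4 crosses that had such a library. Its sign in A, B6, CAST, NOD, PWK and WSB turned to negative when TM replicate 3 was left out. In xNOD both TM libraries, at 56.4 and 127, were above the controls of 31.2, 46.3 and 38.9, with an adjusted p of 0.0442 (limma). Cebpb was called induced there at an FDR of 5% and with the replicate block, settings that called 957 and 470 of all genes. It was also called in xCAST with the replicate block, which called 269 of all genes. Cebpb shares 312 exonic bases with Tmem189 on the other strand, and the library kit does not keep strand, so some of these reads cannot be assigned.

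Ddit3 encodes CHOP, a C/EBP family factor linked to cell death under prolonged ER stress. Its level per kilobase, a median of 22.5 scaled reads in controls of the strains, was below those of Atf4, Nupr1, Ppp1r15a, Cebpb and Sesn2, and at 346 it was the highest of the 10 genes with TM. Its TM values reached 572, 1199 and 876 in A and were lowest in CAST, at 332 and 367. Both of these libraries lay under the TM range of all other strains. The log2 change ran from 3.21 ± 0.08 in B6 (SE, n = 2 and 2) to 4.33 ± 0.31 in NZO (n = 2 and 3), and B6 also had the highest mean control level, from 68.5 and 65.9. By ratio the order was A, NZO, WSB, 129, PWK, NOD, CAST and B6, where PWK did not overlap with NOD nor CAST with B6. In xWSB, control replicate 1 read 121 against 72.5 and 68.4 in the other controls. Ddit3 was induced in all 13 genotypes. It shares 68 exonic bases with Mars and 13 with Gm4189 on the other strand. A second annotated Ddit3 entry on the same strand shares 105 exonic bases with it and was not among the genes measured.

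Atf3, an ATF family factor induced by many stresses, was the least abundant of the 10 genes in control cells, at a median of 1.78 per kilobase, and rose to 18.8 with TM. In PWK it went from 3.02, 2.76 and 3.65 to 54.9, 51.5 and 61.9. In NOD it went from 3.39 and 5.93 to 27.3, 27.8 and 30.8. The 3 PWK values were all above the 3 NOD values. Atf3 was induced in all 13 genotypes, with log2 changes from 2.64 in NOD to 4.12 in PWK. The lowest TM values were those of CAST, 19.1 and 17.9, and of 129, 22.6, 18.1 and 19.7. CAST also had the lowest controls, 2.07 and 1.57, and its ratio stood in the fourth place, after PWK, A and NZO.

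The question whether strains differ in the response was asked with the strain by treatment interaction, which 0.174% of all genes passed at an adjusted p below 0.01 (limma). Of the 10 genes 3 passed, namely Trib3 (adjusted p = 0.000115), Sesn2 (0.00142) and Ppp1r15a (0.00481). Chac1 did not, at 0.0336, nor did Atf3 at 0.187. For Atf4, Ddit3, Nupr1, Cebpb and Cebpg the adjusted p was 1.00. With replicate number as a block, which uses 32 of the 40 libraries and leaves 8 residual degrees of freedom in place of 24, none of the 13197 genes passed, Trib3, Sesn2 and Ppp1r15a included (adjusted p = 1.00). A second test, of strain on the log2 ratio of each TM library to its median control, passed 2.9% of all genes and 5 of the 10, with Chac1 and Atf3 added. That test takes the control level as known without error. Levels in control cells differed between strains for 37.2% of all genes and 8 of the 10, and levels in TM cells for 46.5% of all genes and 6 of the 10, so these shares are read against high backgrounds.

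Trib3 (chr2:152337422-152344032, minus strand) encodes a pseudokinase that binds ATF4 and CHOP and restrains them. It was induced in all 13 genotypes. Its strains differed before TM. In B6 the controls were 53.1 and 56.6, and in CAST 50.5 and 46.2. In NZO they were 14.3 and 13.8, and in 129 they were 12.6 and 11.3. No library of B6 or CAST overlapped with those of NZO or 129, and the means over strains spanned 4.59 fold (adjusted p = 8.24e-11, limma). With TM, the 129 libraries read 190.4, 201 and 138, the NZO libraries 161, 163 and 225, and the B6 libraries 233 and 191. These overlapped, and strain means of TM cells spanned 1.52 fold, from 160 in NOD to 244 in WSB (adjusted p = 0.0258). The log2 change was 3.85 ± 0.20 in 129 (SE, n = 2 and 3) and 3.68 ± 0.18 in NZO (n = 2 and 3), against 1.94 ± 0.09 in B6 (n = 2 and 2). The B6 ratios were under those of all other strains. The order of the ratios was 129, NZO, A, WSB, PWK, NOD, CAST and B6. Neighbours overlapped in that order except between NZO and A and between CAST and B6. With 1 of the 40 libraries left out at a time, the adjusted p of the interaction was between 3.33e-05 and 0.00158.

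Chac1 (chr2:119351229-119354381, plus strand), which degrades glutathione, was induced in all 8 strains and 4 of 5 crosses. Controls were 48.9 and 46.4 in B6 and 44.9 and 45.7 in WSB. In 129 they were 14.9 and 13.8, the lowest of all strains. Control means spanned 3.31 fold (adjusted p = 3.49e-07, limma) and TM means 1.57 fold (adjusted p = 0.0217), with CAST at 143 and A at 224. The log2 change was 3.35 ± 0.17 in 129 (SE, n = 2 and 3) and 1.79 ± 0.08 in B6 (n = 2 and 2). By ratio the order was 129, NZO, A, NOD, PWK, CAST, WSB and B6, so that the ends were the same strains as for Trib3. Control replicate 1 of A, at 19.4 against 35.5 and 30.1, stood below the others, and without it the interaction reached an adjusted p of 0.00453. It was past the threshold in 2 of the 40 fits that left out a library, the other being that without A control replicate 2.

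**Figure D2:**
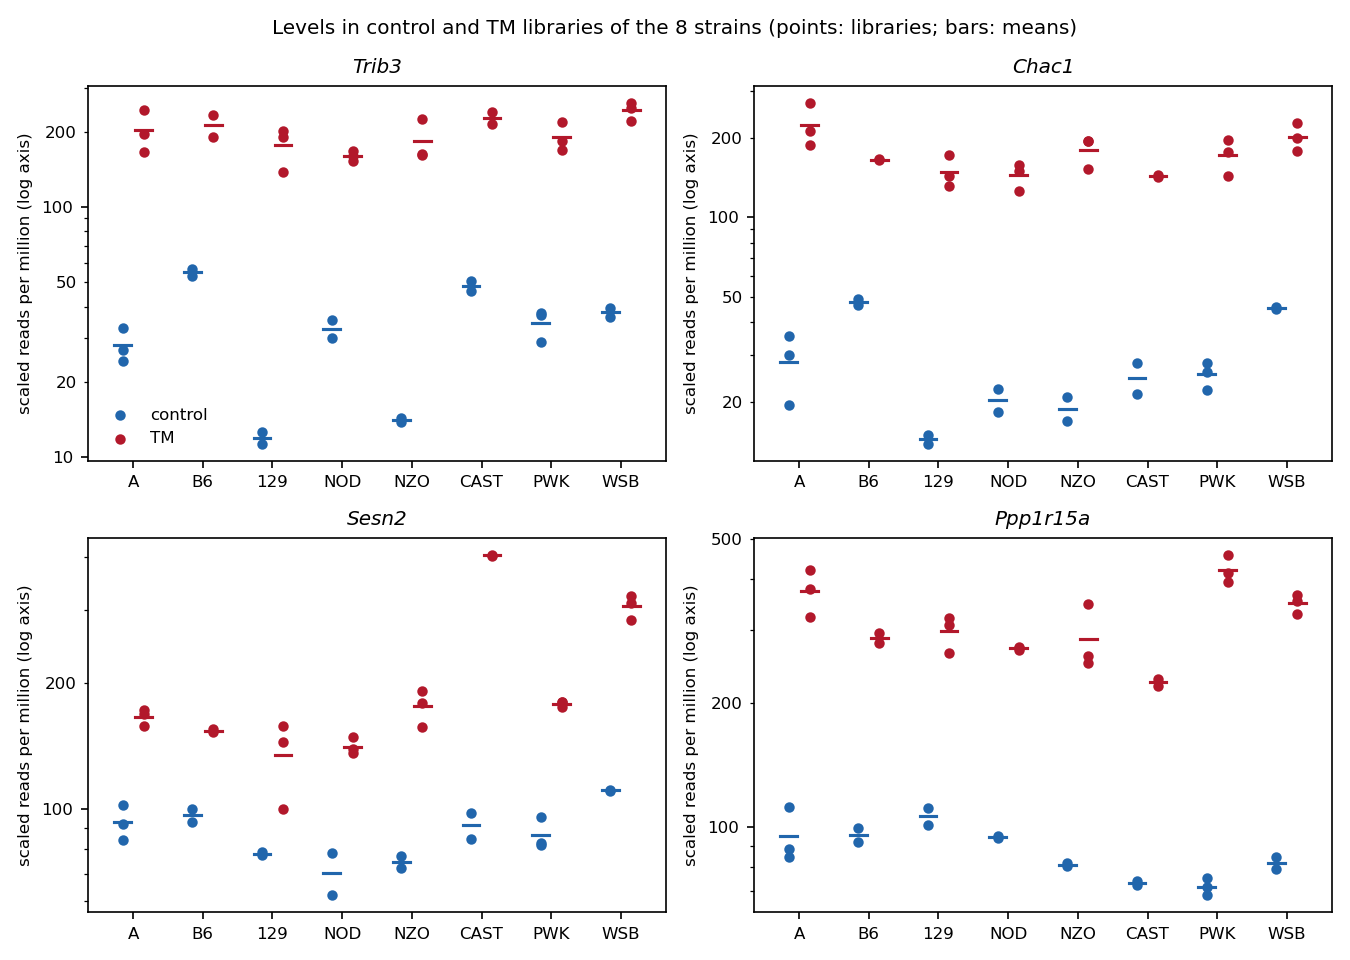
Scaled reads per gene (log y axis) of Trib3, Chac1, Sesn2 and Ppp1r15a in each control and TM library of the 8 strains, with bars at the means. Trib3 and Chac1 spread more in control than in TM cells (4.59 against 1.52 fold and 3.31 against 1.57 fold between strain means), and Sesn2 spread more in TM cells (3.01 against 1.58 fold).

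Sesn2 (chr4:132492032-132510501, minus strand) encodes sestrin 2, which lowers mTORC1 activity and takes part in the antioxidant response. It was induced in 5 of 8 strains and all 5 crosses, and its strains differed more after TM than before. In CAST the controls were 84.9 and 97.6 and the TM libraries 403 and 406. In WSB the controls were 111 and 110.1 and the TM libraries 283, 323 and 311. In B6 the controls were 93.2 and 100.1 and the TM libraries 155 and 153. TM libraries of CAST lay above those of all other strains, and those of WSB above the other 6, whose means ran from 134 to 179. Strain means of TM cells spanned 3.01 fold (adjusted p = 3.19e-11, limma) and those of control cells 1.58 fold (adjusted p = 0.00586). The log2 change was 2.15 ± 0.12 in CAST (SE, n = 2 and 2), 1.46 ± 0.13 in WSB (n = 2 and 3) and 0.67 ± 0.08 in B6 (n = 2 and 2). By ratio the order was CAST, WSB, NZO, PWK, NOD, A, 129 and B6, with CAST above all other strains and WSB overlapping with NZO. Without CAST control replicate 1, TM replicate 2 or TM replicate 3 the interaction had an adjusted p of 0.0156, 0.0101 and 0.011. The level difference in TM cells passed whichever library was left out, and that in control cells passed in 34 of 40 such fits, with the highest adjusted p at 0.0257.

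Ppp1r15a (chr7:45522916-45526268, minus strand) encodes GADD34, the subunit that directs protein phosphatase 1 to eIF2 and so restores translation. It was induced in 7 of 8 strains and all 5 crosses. It was highest with TM in PWK, at 458, 393 and 413 from controls of 75.3, 68.2 and 71.4. In 129 it went from 111 and 101 to 308, 321 and 265, and in CAST from 74.0 and 72.4 to 220.3 and 229. PWK and CAST had the lowest control means, and with TM the CAST libraries were lowest. The log2 change was 2.55 ± 0.09 in PWK (SE, n = 3 and 3) and 1.49 ± 0.15 in 129 (n = 2 and 3), and the PWK ratios were above those of every other strain. The interaction was passed in 22 of the 40 fits that left out a library, and the highest adjusted p was 0.0325, without PWK TM replicate 1.

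Nupr1, a small chromatin protein induced by stress, differed between strains in level and did not pass the interaction. Controls of A were 396, 222 and 222, against 130.45 and 156 in NZO and 78.5 and 77.1 in B6. With TM, A had 325, 618 and 451, and B6 had 118 and 140.2. All 3 A controls were above the controls of each other strain, and strain means of Nupr1 spanned 3.601 fold in control cells and 3.606 fold with TM. Both differences passed (adjusted p = 1.47e-06 and 1.41e-06, limma). The log2 change ran from 0.70 in CAST to 1.15 in WSB, all neighbours overlapped in the order of ratios, and 5 of 8 strains and 2 of 5 crosses passed. Over the 8 strains the Pearson correlation of log2 control and TM means was 0.99 for Cebpb, 0.94 for Nupr1, 0.81 for Cebpg and 0.64 for Atf3. It was 0.58 for Ddit3, 0.57 for Sesn2, 0.56 for Trib3, 0.45 for Chac1, 0.28 for Atf4 and -0.08 for Ppp1r15a. These describe 8 points each. For Cebpb, strain levels passed in neither control nor TM cells (adjusted p = 0.787 and 0.529, limma). Its means were highest in A and lowest in CAST in both conditions.

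The F1 crosses, which share the B6 mother, were looked at first for Sesn2 and Trib3, the genes with the smallest interaction p among strains. Sesn2 in xCAST went from 85.8 and 82.6 to 307, 249 and 275, and in xWSB from 82.9, 85.6 and 69.75 to 220.45, 223 and 236. In xNOD it went from 60.8, 53.4 and 56.4 to 95.8 and 95.3. TM libraries of xCAST were above those of xWSB, and both were above the TM libraries of x129, xNZO and xNOD. The log2 change was 1.71 ± 0.15 in xCAST (SE, n = 2 and 3), 1.52 ± 0.16 in xWSB (n = 3 and 3) and 0.75 ± 0.10 in xNOD (n = 3 and 2). The xCAST value lay between those of B6 and CAST, and the xWSB value was 0.45 ± 0.15 above the mean of B6 and WSB. The cross by treatment interaction of Sesn2 had an adjusted p of 0.0258 (limma), which missed the threshold, and 0.0137 to 0.161 when 1 library was left out.

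For Trib3, whose highest cross value was in xNZO, the x129 log2 change of 2.73 ± 0.11 and the xNZO change of 3.11 ± 0.18 lay between B6 and the paternal strain, as did the xWSB change of 2.44. In xNOD the change was 2.67 against 1.94 in B6 and 2.29 in NOD, and in xCAST it was 2.29 against 2.23 in CAST, so both lay above their parents, in xCAST by less than its standard error. Controls of x129 were 22.5, 20.96 and 26.4 and its TM libraries 160.0, 164 and 141. TM means of Trib3 spanned only 1.08 fold over the crosses, from 153 to 166. None of the 10 genes passed the cross by treatment interaction, which 0.0547% of all genes passed. None passed the test against the parental mean, which 0.135% of all genes passed. Chac1 lay between its parents in 5 of 5 crosses, and Cebpb above both in 5 of 5, although in x129 it was 0.20, as in 129. The 5 comparisons share the B6 change and are not separate observations. That change was 1.79 for Chac1, the lowest of the 8 strains, and 0.10 for Cebpb. How often other genes lay between or above their parents was not counted.

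**Figure D3:**
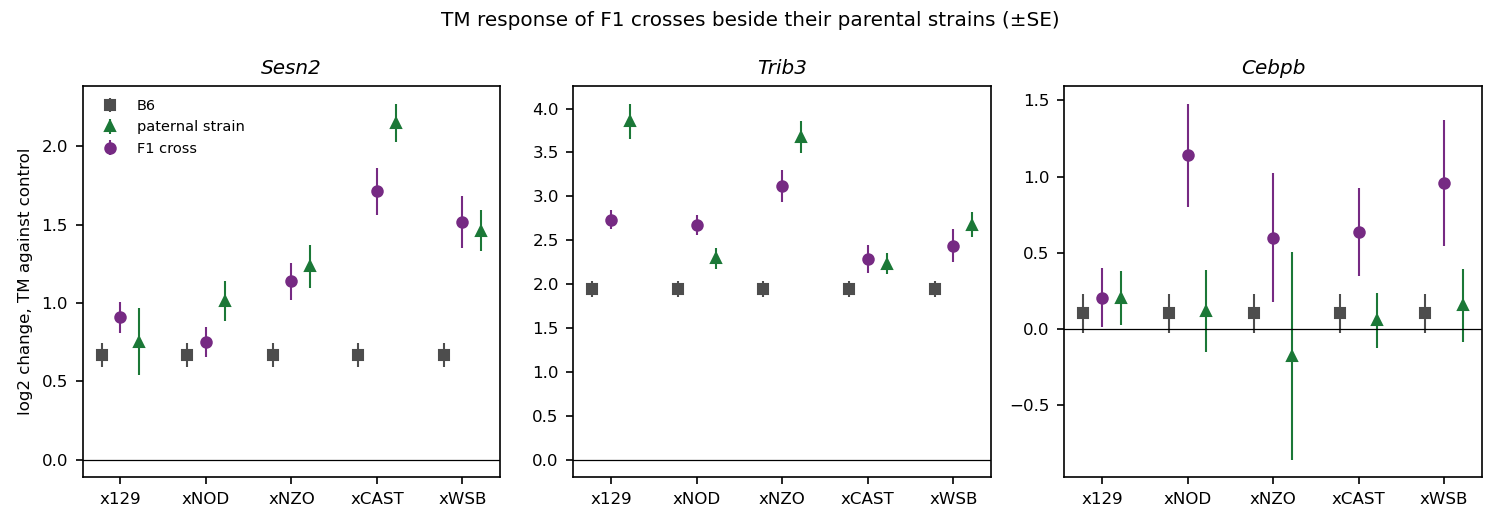
Log2 change with TM (y axis, SE bars) of Sesn2, Trib3 and Cebpb in each F1 cross beside B6 and the paternal strain. Sesn2 reached 1.71 in xCAST and 1.52 in xWSB against 0.67 in B6, Trib3 fell between the parents in x129, xNZO and xWSB and above both in xNOD and xCAST, and Cebpb stood at 0.20 in x129 and up to 1.14 in xNOD, with wide bars.

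Other genes of the pathway gave a scale for these values. Of 16 other ATF4 targets, 53 of 128 gene-by-strain pairs were induced, against 2.4% over all genes, and the median log2 change ran from 0.64 in B6 to 1.16 in PWK. Fgf21, a stress hormone, was induced in 7 of 8 strains, but its controls were at 0 in 129 and CAST and its fitted changes depend on the pseudocount. Adm2, a peptide hormone of the calcitonin family, had a mean log2 change of 2.25 (6 of 8). The death receptor gene Tnfrsf10b (-0.08) and Atf5 (0.06) were induced in no strain. Of 12 other genes of the unfolded protein response (UPR), 79 of 96 pairs were induced, against 2.4% over all genes. Herpud1 stood at 4.30 and Derl3 at 4.19, both of ER-associated degradation. The list was not chosen to leave out genes that ATF4 may also act on. Derl3 had control means of at most 1.15, so its value also depends on the pseudocount. Xbp1 (1.18) and Edem1 (0.99) had the smallest means in that list and were induced in 5 of 8 strains each. For the 10 genes the median ran from 1.29 in NOD to 1.89 in PWK.

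For the upstream machinery and the paralogs the counts lay on either side of the 2.4% of pairs induced over all genes. Of 11 genes for eIF2 kinases, eIF2 subunits and eIF2 phosphatases, 4 of 88 pairs (4.55%) were induced. Eif2s2, the beta subunit of eIF2, accounted for 3 of them (mean 0.81) and Eif2ak3, which encodes PERK, for the other (0.55). The means of Eif2ak4 and Ppp1ca were -0.25 and -0.18. Of 9 paralogs of the members, 1 of 72 pairs (1.39%) was induced, Cebpd in a single strain (mean 0.51). There 2 pairs were lowered, Trib2 in B6 and in PWK (mean over the strains -0.80). In these strains 408 of 12684 and 548 of 12730 of all genes were lowered. Chac2 had a mean of 0.48 and Cebpa of -0.52 with no call. The lists share genes, as Atf5 is among both the paralogs and the other ATF4 targets. Ppp1r15b is among both the paralogs and the eIF2 list.

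**Figure D4:**
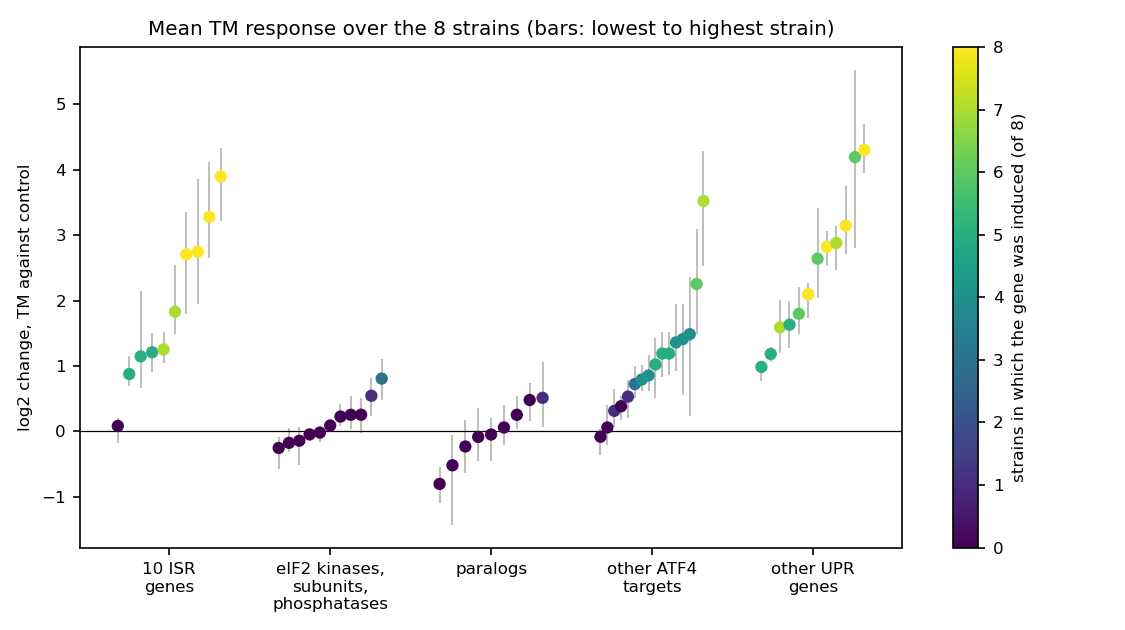
Mean log2 change over the 8 strains (y axis) of each gene in 5 lists, with bars from the lowest to the highest strain and colour for the number of strains in which it was induced. The 10 integrated stress response (ISR) genes reached from 0.08 for Cebpb to 3.90 for Ddit3, and the eIF2 list stayed between -0.25 and 0.81. The mean of Fgf21 depends on the pseudocount.

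Likeness among the 10 genes was uneven. Over the 22 TM libraries of the strains, Pearson's r of their log2 ratios ran from -0.25 to 0.84 over 45 pairs, with a median of 0.26 and 14 pairs below 0. These libraries share controls within a strain, so the values are descriptive. Among 11238 other genes, Trib3 was most like Adm2 (0.88) and Pck2 (0.85), and Cebpg was also most like Adm2 (0.85), followed by Etf1 (0.83). Ddit3 was most like Gadd45a (0.89) and Ramp3 (0.87), and Ppp1r15a most like Dusp5 (0.95) and Junb (0.93). Atf4 followed Rsl24d1 (0.91) and Rabggtb (0.90), Nupr1 followed Eif2b2 (0.93) and Galk1 (0.92), and Cebpb followed H1fx (0.92) and Igfbp7 (0.90). For Atf3 the nearest were Nrd1 (0.88) and Rap2a (0.84), and for Chac1 Acot2 (0.79) and Car6 (0.78). Sesn2 had the weakest neighbours, Zfp747 (0.75) and Tbx18 (0.70).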

How the data were processed

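RNA was sequenced as single 100-base reads from TruSeq libraries. Per the labels and the study's methods, the authors trimmed reads, aligned them with TopHat 1.4.1 to strain-specific versions of GRCm38 (mm10), counted reads per gene, scaled counts by TMM in edgeR and removed libraries that did not group with their own condition. The deposited values are called FPKM, but each library's values are whole multiples of a single step and do not depend on gene length, so they were treated as a scaled read signal deposited by the authors. Whole reads were recovered in 66 of 68 libraries. In the crosses, 15.5 to 24.1% of the signal was in lines that name no gene, which were left out.

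Each genotype was fitted with limma 3.58.1 (R 4.3.3) on log2(value + 0.1) with a mean-variance trend, for genes at 0.5 or more in at least 2 libraries. F tests over strains used all libraries of a set, and p-values were adjusted by Benjamini-Hochberg over all genes. Fold changes are on that log2 scale. Ensembl identifiers were matched to GENCODE vM21 symbols and exon lengths. The fit within a genotype (in B6, A and PWK) and the F tests over strains were tested on simulated reads of the strains. There the test of strain on the log2 ratio also called unchanged genes. The simulation gave every group the same spread, unlike the data. The cross tests and the alternative settings were not simulated. edgeR 4.0.16 on recovered reads, a replicate block and other settings were alternatives. The labels do not say that replicate numbers mark a shared batch, and same-numbered deviations correlated above 0.1 in every pair only in xWSB (r 0.130 to 0.272) among genotypes with 3 pairs. The 10 genes were named by rule, together with the genes of largest and smallest mean change in each list and the 2 genes most correlated with each member. Members and lists were chosen with earlier results of these data known. Unlike the planned fit, the values are not FPKM, but the same test was kept.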

Additional observations from a re-analysis of the deposited data

Results flagged for a closer look

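Trib3, Sesn2 and Ppp1r15a were singled out because their response to TM differed between strains, each a single stock of MEFs. The test was the strain by treatment interaction (limma, adjusted over all genes). For Trib3 the adjusted p was 0.000115, with the largest log2 change in 129 (3.85) and the smallest in B6 (1.94). For Sesn2 it was 0.00142, with the largest in CAST (2.15) and the smallest in B6 (0.67). For Ppp1r15a it was 0.00481, with the largest in PWK (2.55) and the smallest in 129 (1.49). None of the 3 passed with replicate number as a block, a fit in which no gene passed.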

How the results depend on the processing

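Counts of induced members moved with the estimate of the spread and with single libraries. Without the mean-variance trend, calls over the 8 strains were 35 in place of 61, with 1 in B6, 5 in CAST, 5 in NOD, 2 in NZO and 4 in WSB, and in the crosses 4 in xNOD and 3 in xWSB. Calls over all genes were then 14 in B6, 28 in CAST, 64 in NOD, 10 in NZO and 21 in WSB. They were 24 in xNOD and 12 in xWSB. With 1 fit over the set, A, NZO and xWSB had 8 each, and 554, 449 and 387 of all genes. edgeR on recovered reads gave 3 in NZO, and 21 of all genes. At an FDR of 5%, NZO had 8 and xNOD 10, and 256 of all genes were called in NZO and 957 in xNOD. In the cross by treatment interaction, Sesn2 was within that FDR, at an adjusted p of 0.0258 (limma). The share of all genes within 5% in that test is not given here. The replicate block could not be fitted in B6 and CAST. It gave 8 in NZO, 3 in xWSB, 47 against 43 calls over the other 6 strains, and 10 in xCAST and xNOD, and 0 in place of 3 for the strain by treatment interaction, where no gene of any kind passed. The block called 153 of all genes in NZO, 10 in xWSB, 269 in xCAST and 470 in xNOD. The correlation of same-numbered deviations exceeded 0.1 in 9 of 29 pairs (median 0.0125) and was best with the own number in 10. It exceeded 0.1 in all 3 pairs of xWSB and in both of NZO, and was below 0 in all 3 of A. Which of the 10 genes passed the strain by treatment interaction also moved with the library left out, as given gene by gene above. For the induced counts, only fits that kept at least 2 libraries in each group are given. The count was 0 to 8 in 129, 0 to 5 in A and 4 to 5 in NOD. It was 0 to 8 in NZO, 3 in xNOD and 0 to 5 in xWSB. In the same fits, calls over all genes ran from 0 to 249 in 129 and 5 to 32 in A. They ran from 37 to 64 in NOD, 1 to 1289 in NZO, 13 to 19 in xNOD and 4 to 23 in xWSB. Only Cebpb changed sign. In NZO it was 0.19 with the replicate block and 0.24 by edgeR. Leaving out 1 library at a time, it ran from -0.12 to 0.48 in A, from -0.16 to 0.37 in B6, from -0.21 to 0.33 in CAST, from -0.17 to 0.36 in NOD, from -0.91 to 0.20 in NZO, from -0.41 to 0.38 in PWK and from -0.083 to 0.38 in WSB. The cause of these moves was not tested. The size of change that could be called differed between genotypes: Sesn2 at 1.59 fold was induced in B6 and Ppp1r15a at 3.49 fold was not in NZO.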
